A study of Gallus gallus with 30 samples.

Results

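Heat shock proteins and chaperones are the proteins that help others to fold, keep them from aggregating, or hold them until they are used. Here they are represented by 9 genes, SERPINH1, HSP90AA1, HSP90B1, HSPA2, HSPA5, HSPA8, HSPD1, HSPB9 and DNAJA1, of 13008 genes that the array reports with 1 symbol. The genes were picked by symbol, as members of the main chaperone families, with earlier results of these data known. Counts among them describe these 9 genes and not chaperones in general. The array carries 14 probe sets for these 9 genes, and each gene was read from the probe set with the highest mean log2 signal. All 9 genes lay above the array's background on 30 of 30 arrays.

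Chaperones work in families that differ in their compartment and in the clients they serve. HSP70 proteins bind short unfolded stretches of a client, are loaded by J-domain proteins of the HSP40 class and hand many clients on to HSP90, which finishes the maturation of kinases, steroid receptors and other signalling proteins. The endoplasmic reticulum has its own HSP70 and HSP90, and collagen has a chaperone of its own, SERPINH1 (HSP47), while mitochondria fold imported proteins in the HSP60 chaperonin. Many of these genes are induced by heat through heat shock factors, and in birds HSF3 takes part in that response beside HSF1. Many of them are also expressed in unstressed cells, where they serve newly made proteins.

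Total RNA of wild-type chicken embryos of the Nera line was measured on Affymetrix Chicken Genome Arrays at 15 Hamburger-Hamilton stages. The series opens with the blastoderm of the laid egg (HH1) and the first incubated stage (HH2). It goes on through gastrulation (HH4 and HH6), the first somites (HH8, HH9 and HH11) and the time of organ rudiments (HH14, HH16 and HH19). Later embryos are HH24, HH27, HH32, HH34 and, as the oldest, HH38. Eggs were kept at 37.5 degrees, the value given for every stage, HH1 included. Yolk and amnion were taken off, and embryos were of mixed sex. Each stage had 2 biological replicates, each a pool of RNA from several whole embryos on 1 array. How many embryos made a pool was not stated in the labels read here. The labels give no heat shock, treatment or mutation, so every comparison below is between stages. From HH1 to HH2 the start of incubation coincides with a step of development, and these cannot be told apart. In RNA of whole embryos, fewer cells of a type and less RNA per cell cannot be told apart.

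Every value is a MAS5 signal, a brightness per probe set on a linear scale, with a trimmed mean of 500 on each of the 30 arrays. The background of an array, the 95th percentile of its probe sets for other organisms, lay between 25.4 and 47.2. The 3' to 5' ratio of the actin control was 2.48 and 2.99 on the HH38 arrays and 1.54 to 2.01 on the others, and 23 of 30 arrays were most like the other array of their own stage. The highest signal of any of the 9 genes was 36320 (HSPA8, HH2 replicate 2), and the brightest chicken probe set of an array lay between 38145 and 56954; whether the brightest probes approached the limit of the scanner was not tested. Levels are compared between stages for 1 probe set at a time and not between genes. A gene is said to have risen or fallen where limma gave an adjusted p below 0.05 together with a change of at least 2-fold. The number of arrays, 2 a stage, limits the precision of every value.

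At the start of incubation, from HH1 to HH2, 4 of the 9 genes rose and 0 fell. The background is 10.7% of 12103 genes called either way, with 6.01% higher and 4.73% lower. The genes that rose were the collagen chaperone SERPINH1, the cytosolic HSP90 HSP90AA1, the HSP40 DNAJA1 and the HSP90 of the endoplasmic reticulum, HSP90B1. Both HH2 arrays lay above both HH1 arrays for 8 of the 9 genes, a pattern that 32.9% of all genes showed. The 9 genes are bright: the median share of chicken probe sets brighter on the same array ran from 0.304% for HSPA8 to 6.56% for SERPINH1. Shares over genes of like brightness were not taken, here or below. The median difference of the 9 genes was 0.40 on the log2 scale, against -0.0047 over all genes tested. The course of each gene over the arrays shows this step at the left end of 4 panels.

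**Figure D1:**
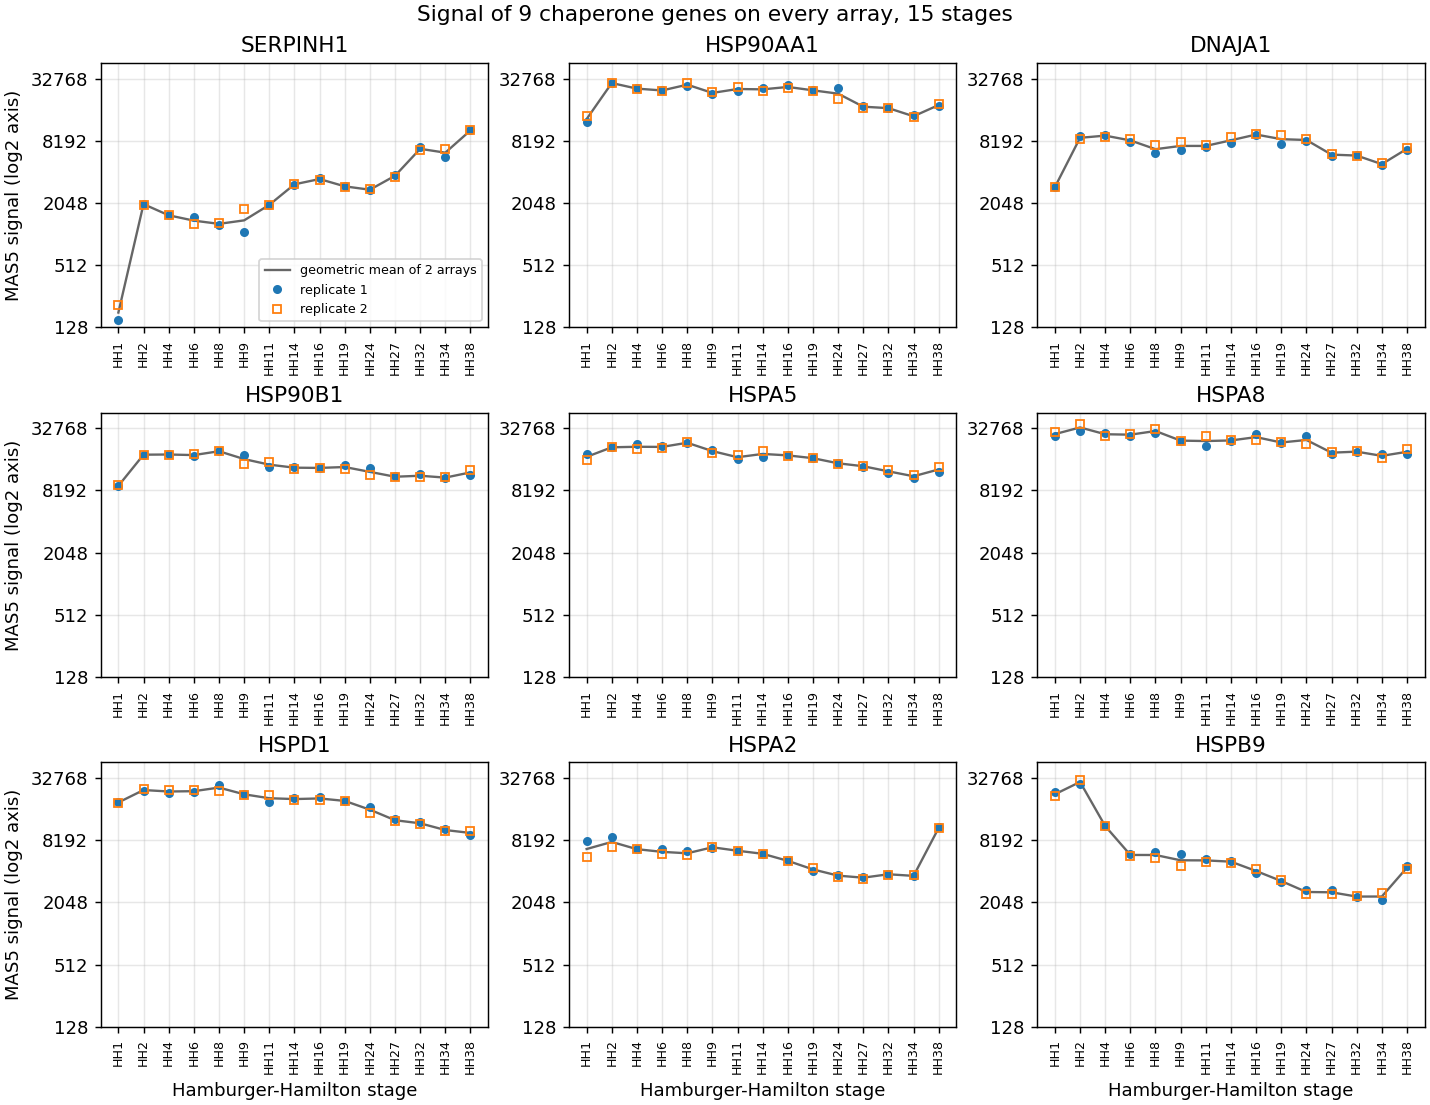
MAS5 signal (log2 axis) of the 9 chaperone genes on every array, with Hamburger-Hamilton stage on the horizontal axis; circles and squares are the replicates of a stage and the line joins their geometric means. SERPINH1 has its lowest value at HH1 and its highest at HH38, HSP90AA1, DNAJA1 and HSP90B1 are lowest at HH1, HSPD1 is lowest at HH38, HSPB9 falls after HH2, and HSPA2 has its highest value at HH38.

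SERPINH1 had the largest difference among the 9 genes. Its signals were 2024 and 1975 on the HH2 arrays, against 152 and 209.8 on the HH1 arrays. The groups did not overlap, and the mean was 11.2 times higher at HH2, a log2 difference of 3.49 ± 0.153 (SE, n = 2 arrays a stage; adjusted p = 4.21e-13, limma). The HH1 arrays differed from each other with an SD of 0.332 on the log2 scale, the HH2 arrays with an SD of 0.025. The summed signal of 9 connective tissue markers lay between 1063 and 1073 on the HH2 arrays, against 461 to 656 on the HH1 arrays. On each HH2 array 4 markers were at or below background, and 3 or 4 on the HH1 arrays. Of these markers, COL1A2 averaged 478 at HH2, against 74.5 at HH1, and COL1A1 277 at HH2, against 70.5 at HH1. The rise of the sum came from these collagens, and the other markers together were lower at HH2. The part of the markers in the SERPINH1 result was not tested.

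HSP90AA1 encodes HSP90 alpha, the heat-inducible HSP90 of the cytosol. It had 29863 and 29553 at HH2, against 12451 and 14228 at HH1, with no overlap. The difference was 1.16 ± 0.0838 (SE; adjusted p = 8.53e-10), or 2.23-fold. DNAJA1, a J-domain protein that delivers clients to HSP70, had 9062 and 8473 at HH2, against 2935 and 2905 at HH1. All arrays of HH2 lay above those of HH1, and the mean was 3-fold higher, with a log2 difference of 1.59 ± 0.097 (SE; adjusted p = 7.12e-11, limma).

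HSP90B1, known as GRP94, folds secreted and membrane proteins in the endoplasmic reticulum. Its signals were 18122 and 18258 at HH2, against 9018 and 9155 at HH1. The arrays of a stage nearly coincided, and the stages were 2.002-fold apart, a log2 difference of 1.00 ± 0.0819 (SE; adjusted p = 5.1e-09, limma). This gene sits at the edge of the 2-fold rule. The difference came to 0.99 after quantile normalization, 0.99 without HH1 replicate 1 and 0.996 without HH2 replicate 2, and the gene was then not called.

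The other 5 genes were not called at this step. HSPD1, the HSP60 chaperonin of the mitochondrial matrix, had 24667 and 25389.8 at HH2, against 19311 and 18628 at HH1, a log2 difference of 0.40 ± 0.0768 (SE; adjusted p = 0.000347, limma). HSPA5, the HSP70 of the endoplasmic reticulum also called BiP, had 21407 and 21488 at HH2, against 18493 and 16255 at HH1, a difference of 0.31 ± 0.0759 (adjusted p = 0.00363). For both genes the HH2 arrays were above the HH1 arrays by less than the 2-fold rule asks. HSPB9, a small heat shock protein that is known from the testis in human, had 28590 and 31382 at HH2, against 23907 and 21695 at HH1, a difference of 0.40 ± 0.105 (adjusted p = 0.00628). The cytosolic HSP70 proteins were closest to 0. HSPA8, the constitutive HSC70, had 30708 and 36320 at HH2, against 27615 and 29972 at HH1, a difference of 0.22 ± 0.101 with an adjusted p of 0.125. HSPA2, an HSP70 that mouse male germ cells need for meiosis, had 8837 and 7008 at HH2, against 7995 and 5649 at HH1, and was the gene of the 9 whose groups overlapped (difference 0.23 ± 0.111, adjusted p = 0.142). The 95% interval of the difference ran from 0.0054 to 0.42 for HSPA8 and from -0.0029 to 0.46 for HSPA2, both below the log2 value of 1 that a 2-fold change takes. At an unadjusted p under 0.05, 8 of the 9 genes were higher and 0 lower, against 23.5% and 21% of all genes.

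**Figure D2:**
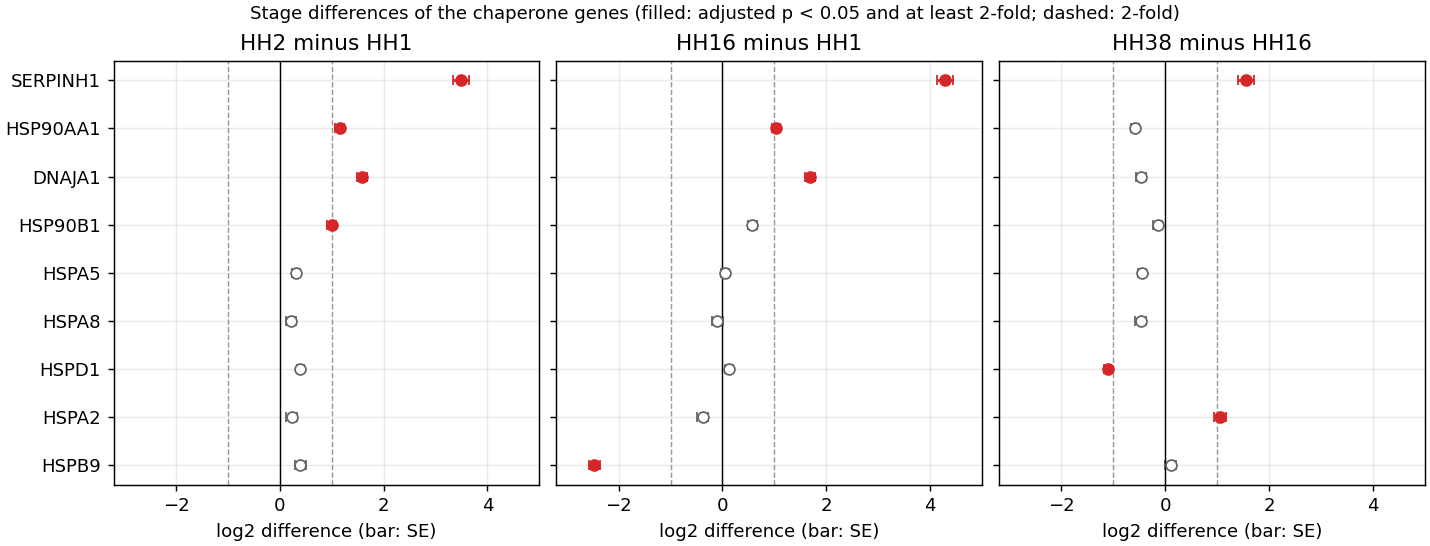
Log2 difference between stages for the 9 genes (rows) in HH2 minus HH1, HH16 minus HH1 and HH38 minus HH16; bars are standard errors, dashed lines mark 2-fold, and filled points passed both the adjusted p and the fold. In the left panel SERPINH1, HSP90AA1, DNAJA1 and HSP90B1 are filled and all 9 points lie to the right of 0.

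By the used probe sets, none of the 9 genes was called at HH2 above both HH1 and HH4, a peak that 25 of 12103 genes (0.207%) had. The other probe set of HSPB9 did have this peak, with log2 differences of 1.37 in HH2 minus HH1 and -2.93 in HH4 minus HH2, both called. Of the 4 genes that rose at HH2, SERPINH1 and DNAJA1 were still called above HH1 at 13 and 12 of the 13 later stages, and DNAJA1 missed the 2-fold rule at HH34 (log2 difference from HH1 of 0.74). HSP90AA1 was called above HH1 again at HH8 and HH16, and HSP90B1 at HH4 and HH8. At the other later stages HSP90AA1 lay 0.09 to 0.98 above HH1 on the log2 scale, and HSP90B1 0.26 to 0.99. The other probe set of HSP90AA1 lay below HH1 at HH27 and HH34. Over all genes, 18.6% of the pairs of a gene and a later stage were called above HH1. The same HH1 arrays serve all of these comparisons.

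From HH1 to HH16, the stage with organ rudiments, 3 of the 9 genes rose and 1 fell, with 27.2% of all genes called, 16.7% higher and 10.5% lower. SERPINH1 had 3563 and 3429 at HH16, 19.6-fold above HH1 (4.29 ± 0.153 on the log2 scale, SE; adjusted p = 7.27e-16, limma). DNAJA1 had 9237 and 9620.1 at HH16, a difference of 1.69 ± 0.097 from HH1 (adjusted p = 1.88e-12). HSP90AA1 had 28120 and 26340.2 at HH16 and was 2.04-fold above HH1 (1.03 ± 0.0838, adjusted p = 6.42e-10). The HSP90AA1 call was lost with each array scaled by its 75th percentile (0.88), without HH1 replicate 1 (0.94) and without HH16 replicate 1 (0.98). The gene that fell was HSPB9, with 3916 and 4331 at HH16, against 23907 and 21695 at HH1, a difference of -2.47 ± 0.105 (adjusted p = 1.15e-14). HSP90B1 lay 0.58 above HH1 and was not called, and HSPD1, HSPA5, HSPA8 and HSPA2 differed from HH1 by 0.13, 0.047, -0.096 and -0.38 on the log2 scale.

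From HH16 to HH38, 2 of the 9 genes rose and 1 fell, with 23.4% of all genes called, 14.5% higher and 8.92% lower. SERPINH1 had 10343 and 10319 at HH38, against 3563 and 3429 at HH16, a 2.96-fold difference (1.56 ± 0.153, SE; adjusted p = 1.83e-08, limma). HSPA2 had 10923 and 10619 at HH38, against 5233 and 5095 at HH16 (1.06 ± 0.111, adjusted p = 5.22e-08). HSPD1 fell, with 9269 and 9971 at HH38, against 21344 and 20162 at HH16 (-1.11 ± 0.0768, adjusted p = 7.59e-11). The HSPA2 call was lost under 75th percentile scaling (0.90) and the HSPD1 call under quantile normalization (-0.96). The remaining 6 genes were within 2-fold: HSP90AA1, HSPA8, DNAJA1 and HSPA5 lay -0.58, -0.47, -0.46 and -0.45 from HH16, and HSP90B1 and HSPB9 -0.14 and 0.11. Of the genes called over the whole array in this comparison 62% were higher with the deposited scaling, 51.6% after quantile normalization and 49.4% with 75th percentile scaling.

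Over the whole course, HH38 minus HH1, SERPINH1 was 57.9-fold higher (5.86 ± 0.153, SE; adjusted p = 1.24e-18, limma). DNAJA1 was 2.35-fold higher (1.23 ± 0.097) and HSPB9 5.13-fold lower (-2.36 ± 0.105). These 3 were the genes called, where 42.1% of all genes were, 25.1% higher and 17% lower. With 75th percentile scaling the DNAJA1 call was lost (0.91) and HSPD1 was called lower (-1.30). With the deposited scaling HSPD1 was close to the rule at -0.98 ± 0.0768. By limma's F test over the stages, 9 of the 9 genes differed between stages, as did 82.1% of all genes.

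Read step by step, the 14 steps between neighbouring stages held 6 calls among the 126 pairs of a gene and a step, with 2.66% of such pairs called over all genes. The 4 calls at HH2 have been described. The remaining 2 were the fall of HSPB9 at HH4 and the rise of HSPA2 at HH38. The 11 steps from HH4 to HH34 are those left when the steps with calls are set aside, so their 0 calls follow from that choice. They held 99 pairs, and 1.14% of such pairs were called over all genes, a share that 0 of 99 cannot be told from. Of these pairs, 29 had an unadjusted p under 0.05 and 8 an adjusted p below 0.05, where 15.5% and 3.67% of such pairs over all genes did. The first, second and last steps thus held every step call of these genes in this fit.

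The small heat shock gene HSPB9 was highest at HH2. It had 11166 and 11245 at HH4, against 28590 and 31382 at HH2, a difference of -1.42 ± 0.105 (SE; adjusted p = 7.39e-10, limma). At this step 9.65% of all genes were called and 2.04% were lower. The next step brought it to 6021 and 5756 at HH6, a further -0.93 ± 0.105 (adjusted p = 4.89e-05), just under 2-fold. Its stage means were 5879.8 at HH8, 5225 at HH9, 5215 at HH11, 5069 at HH14 and 4118 at HH16. They were 3293 at HH19, 2579.6 at HH24 and 2560.3 at HH27. It reached 2328 at HH32 and 2331 at HH34. The gene was thus lowest at HH32 and HH34, 9.78-fold and 9.77-fold below HH1. At HH38 it had 4593 and 4293, against 2174 and 2499 at HH34, a difference of 0.93 ± 0.105 (adjusted p = 2.07e-06) that did not reach 2-fold. The summed signal of 8 yolk sac endoderm markers was 72196 to 74121 at HH4, against 10313 to 11308 at HH2, and that of 8 blastoderm and streak markers 27089 to 28012 at HH4, against 30584 to 31746 at HH2. Their part in the fall of HSPB9 was not tested.

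HSPA2 stayed within 2-fold of HH1 up to HH34 and rose at the last step. Its stage means were 6720.4 at HH1, 7869 at HH2, 6696 at HH4, 6307 at HH6 and 6110.2 at HH8. They were 6983 at HH9, 6467 at HH11, 6041 at HH14, 5163 at HH16 and 4265 at HH19. The lowest means were 3547 at HH27, 3692 at HH34, 3712 at HH24 and 3828 at HH32, and no step up to HH34 was called. At HH38 it had 10923 and 10619, against 3658 and 3727 at HH34, a 2.92-fold difference (1.54 ± 0.111, SE; adjusted p = 2.14e-09, limma), at a step where 4.35% of all genes were called and 2.93% were higher. The arrays of each stage lay close together and the stages did not overlap. The summed signal of 6 epidermis markers was 24028 to 24196 at HH38, against 5742 to 5939 at HH34, with 0 markers at or below background on the HH38 arrays and 1 on the HH34 arrays. The same sum was 27793 to 31944 at HH1 and 27997 to 28369 at HH2, so a high sum was not particular to HH38 or to embryos with an epidermis. The HH38 arrays also had the highest actin 3' to 5' ratios. The part of either in the rise of HSPA2 was not tested.

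SERPINH1 stayed within 2-fold of its HH2 mean up to HH27 and had its highest stages late. Its stage means were 1558 at HH4, 1384 at HH6, 1288 at HH8 and 1392 at HH9, below the 1999 of HH2. They then were 1965 at HH11, 3106 at HH14, 3495 at HH16, 2971 at HH19 and 2755 at HH24. They were 3759 at HH27, 6854 at HH32, 6293 at HH34 and 10331 at HH38. The steps with an adjusted p below 0.05 after HH2 were HH11 minus HH9 (0.50), HH14 minus HH11 (0.66), HH32 minus HH27 (0.87) and HH38 minus HH34 (0.72), all under 2-fold. The HH9 arrays were the farthest apart for this gene, with 1083 and 1789. The 9 connective tissue markers summed to 181790 to 199240 at HH38, against 62833 to 63302 at HH16, and 0 of them was at or below background on the arrays of either stage; their part in the higher SERPINH1 of HH38 was not tested.

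HSP90AA1 had higher means from HH2 to HH24 than at HH27 and after, and so did DNAJA1, except that its HH38 mean lay just above that of HH8. HSP90AA1 averaged 26224 at HH4, 25184 at HH6, 28636 at HH8, 23834 at HH9 and 26005 at HH11. It averaged 25803 at HH14, 27216 at HH16, 25249.5 at HH19 and 23438 at HH24. It then averaged 17533 at HH27, 16976 at HH32, 14163 at HH34 and 18209 at HH38, and its HH34 arrays overlapped with its HH1 arrays. DNAJA1 averaged 9199.8 at HH4, 8272 at HH6, 6802 at HH8, 7314 at HH9 and 7312 at HH11. It averaged 8289.7 at HH14, 9427 at HH16, 8504 at HH19 and 8345 at HH24. Then it averaged 6025 at HH27, 5901 at HH32, 4873 at HH34 and 6859 at HH38, all above its 2919.8 at HH1. From HH24 to HH27 the differences were -0.42 ± 0.0838 for HSP90AA1 (adjusted p = 0.00598) and -0.47 ± 0.097 for DNAJA1 (adjusted p = 0.00736), neither of 2-fold. HSPA8 and HSPD1 also had an adjusted p below 0.05 at this step, with -0.41 and -0.34. At HH38, HSP90AA1 and DNAJA1 lay 0.36 and 0.49 above HH34.

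The mitochondrial chaperonin HSPD1 had its lowest values at the last stages. Its stage means were 24217 at HH4, 24390.4 at HH6, 26419.9 at HH8 and 22753 at HH9. They were 20845 at HH11, 20457 at HH14, 20744 at HH16 and 19636 at HH19. They were 16152 at HH24, 12769 at HH27, 11916 at HH32, 10259 at HH34 and 9613 at HH38, each lower than the one before, and no single step reached 2-fold. Its HH34 arrays, 10527 and 9997, and HH38 arrays, 9269 and 9971, did not overlap, and that step had an adjusted p of 0.519.

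The pair of the endoplasmic reticulum had no called step after HH2. HSP90B1 averaged 18266 at HH4, 18030.3 at HH6, 19646 at HH8 and 16497 at HH9. It averaged 14569 at HH11, 13618 at HH14, 13546 at HH16, 13819 at HH19 and 12401 at HH24. It averaged 11128 at HH27, 11378 at HH32, 10912 at HH34 and 12259.6 at HH38, above the 9086 of HH1 throughout. HSPA5 averaged 21704 at HH4, 21634 at HH6, 23734 at HH8 and 19706 at HH9. It averaged 17191 at HH11, 18503 at HH14, 17908 at HH16, 16829.6 at HH19 and 15012 at HH24. It averaged 14062 at HH27, 12553 at HH32, 11247 at HH34 and 13094 at HH38. Both genes were highest at HH8, with 19536 and 19756 for HSP90B1 and 23507 and 23963 for HSPA5. HSPA5 ended -0.41 below HH1 and HSP90B1 0.43 above it on the log2 scale, neither called.

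HSPA8 had the narrowest range of the 9 genes, 1.884-fold between its highest and lowest stage means. It averaged 28700.3 at HH4, 28417 at HH6, 30832 at HH8 and 24882 at HH9. It averaged 24659 at HH11, 24981 at HH14, 26912 at HH16, 23874 at HH19 and 25256 at HH24. It averaged 19025 at HH27, 19464 at HH32, 17723 at HH34 and 19403 at HH38. Its lowest stage was HH34 and its highest HH2. With its stages ordered by level, 12 of the 14 neighbouring pairs had arrays that overlapped.

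In the same ordering 4 of 14 neighbouring pairs overlapped for SERPINH1 and 5 for HSPD1. No share over all genes was taken for these counts, that of HSPA8 included. Arrays that did not overlap could still lie close, as 1975 at HH2 and 1971 at HH11 for SERPINH1. HSP90AA1, HSPA2, HSPA5 and HSPB9 had 8 overlapping pairs each, and HSP90B1 and DNAJA1 10 each. The highest stage was HH2 for HSP90AA1, HSPA8 and HSPB9, as for 10.6% of all genes. It was HH38 for SERPINH1 and HSPA2, as for 16% of all genes. It was HH8 for HSP90B1, HSPA5 and HSPD1 and HH16 for DNAJA1, stages for which no share of all genes is given here. For HSP90AA1, HSPA8, HSPD1 and DNAJA1 the arrays of the highest stage overlapped with those of the next highest. The lowest stage was HH1 for SERPINH1, HSP90AA1, HSP90B1 and DNAJA1, as for 20% of all genes. The ratio between highest and lowest stage was 57.9 for SERPINH1, 12.9 for HSPB9, and 1.88 to 3.23 for the other 7 genes. All of this holds for the used probe sets. The other probe set of HSP90B1 ran from 53.9 at HH1 to 988 at HH32, and that of HSPB9 from 515 at HH34 to 22648 at HH2. That of HSP90AA1 was lowest at HH34 and that of DNAJA1 highest at HH19, while that of HSPD1 kept HH8 and HH38 as its ends. The median SD between the arrays of a stage lay between 0.0288 for HSPA2 and 0.0892 for HSPB9 on the log2 scale.

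Over the 15 stage means the courses of the genes were related as follows, as a description of stages that share a time axis. HSPA5 and HSPD1 had r = 0.96, and each had r = 0.913 with HSPA8. HSP90AA1 had r = 0.864 with DNAJA1 and r = 0.857 with HSP90B1. All r are for the used probe sets, and the other probe set of HSP90B1 had another course. No spread of r over all pairs of genes is given here. SERPINH1 ran opposite to HSPA8 (r = -0.688) and HSPB9 (r = -0.687). HSPB9 and HSP90AA1 were little related (r = 0.199). The genes of the array whose 15 stage means were most like those of each chaperone, among 12094, were PURA (r = 0.969), PLA2R1 and ATP2A2 for SERPINH1, HMGN1 (r = 0.989), WEE1 and PPA1 for HSPD1, and TNFSF10 (r = 0.975), TFAP2C and STIM1 for HSPB9. For HSPA2 they were SPTLC3 (r = 0.942), EVPL and RAB7A, for HSPA5 MTFR1 (r = 0.972), ELOVL5 and CHCHD2, and for HSPA8 GTF2A1 (r = 0.959), DSTN and KIF18B. For HSP90AA1 they were ZC3H15 (r = 0.957), DNAAF5 and CDV3, for HSP90B1 FAM134C (r = 0.962), USP4 and NAA50, and for DNAJA1 DYL1 (r = 0.97), ARFGAP2 and EPRS.

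For 5 of the 9 genes the array has another probe set, which was not used above and gives a second reading of the same symbol. HSP90B1's second probe set gave another course. It had 448 and 377 at HH2, against 50.8 and 57.3 at HH1, a log2 difference of 2.93 (adjusted p = 8.75e-14, limma) where the used one had 1.00. It stayed high afterwards, with 788 and 869.9 at HH16 (3.94 above HH1) and 849.7 and 869.9 at HH38, and its stage means had r = 0.316 with those of the used probe set. Both probe sets were lowest at HH1 and both were called higher at HH2. Over the later stages the second was called above HH1 at each one, by 3.54 to 4.19 on the log2 scale, and the used one at HH4 and HH8 alone. Which transcript each of them reads was not analysed here.

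HSPB9's second probe set shared the course of the used one (r = 0.984) and differed at the start. It had 23789 and 21561 at HH2, against 11856 and 6450.4 at HH1, and was called higher (1.37, adjusted p = 1.87e-06, limma), where the used one was not. The HH1 arrays were far apart on it, and both lay below both HH2 arrays. At HH4 it had 2920.2 and 3037, and HH4 minus HH2 was -2.93. HSP90AA1's second probe set had 17488 and 16844 at HH2, against 6204 and 6951 at HH1 (1.39, adjusted p = 1.41e-06), and r = 0.902 with the used one. It turned below HH1 at HH27 (-0.28, adjusted p = 0.187) and HH34 (-0.52, adjusted p = 0.0117), where the used one lay 0.40 and 0.09 above it; neither was called. DNAJA1's had 3168 and 3149 at HH2, against 1699 and 1543 at HH1, a difference of 0.96 (adjusted p = 1.64e-07) that stopped short of 2-fold. HSPD1's had 22039.5 and 23436 at HH2, against 21604 and 22324 at HH1 (0.049, adjusted p = 0.709), and r = 0.978. It was called below HH1 at HH32, HH34 and HH38 (-1.51 at HH38), where the used one was not. So HSP90AA1 and HSP90B1 were called higher at HH2 by both of their probe sets, and DNAJA1 and HSPB9 by 1 of 2.

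**Figure D3:**
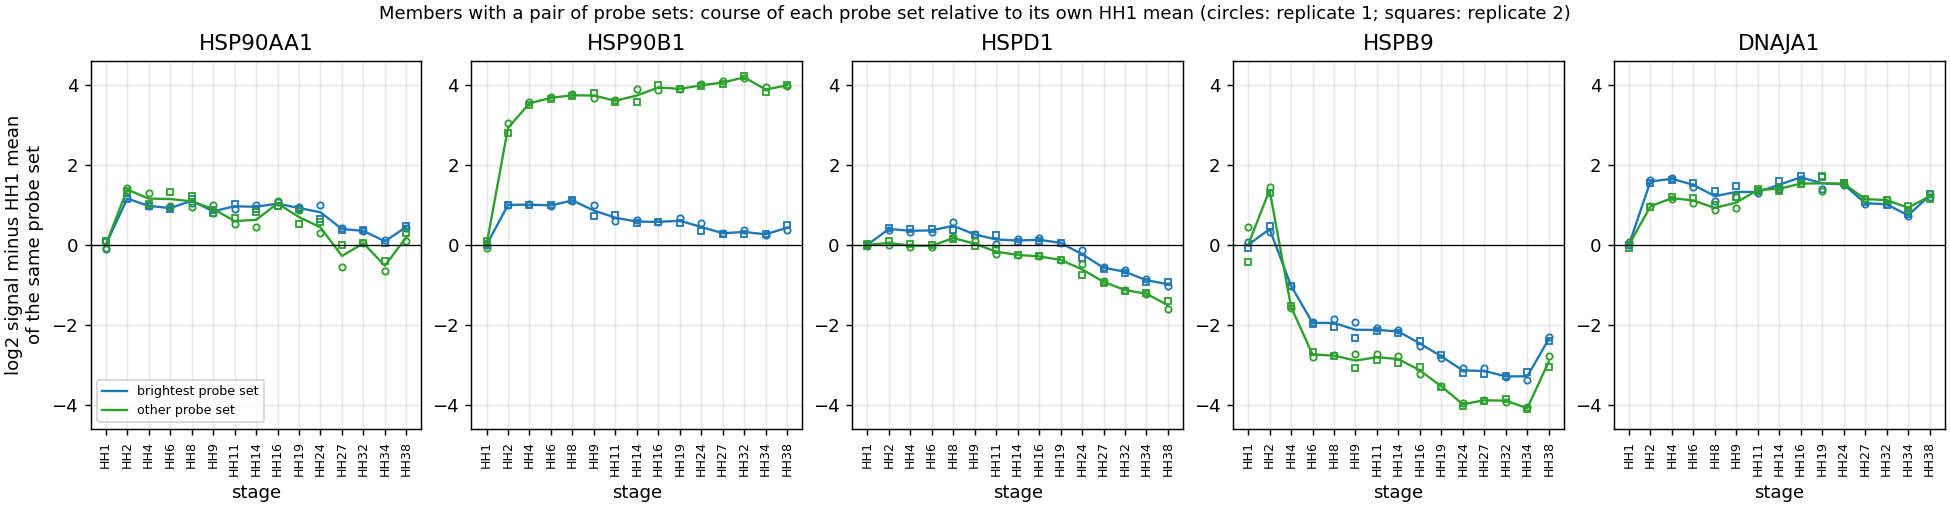
Log2 signal minus the HH1 mean of the same probe set, by stage, for the 5 genes with a pair of probe sets; blue is the brightest probe set, green the other, circles and squares the replicates. At HH2 the green line of HSPB9 lies 1.37 above HH1 and the blue one 0.40, at HH34 the green line of HSP90AA1 lies at -0.52 and the blue one at 0.09, and at HH16 the green line of HSP90B1 lies 3.94 above HH1 and the blue one 0.58.

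Around these genes stand their co-chaperones and relatives, taken from lists of the chaperone network that leave the 9 genes out. Among 24 genes of the cytosolic HSP70 and HSP40 machinery, 1 rose and 1 fell from HH1 to HH2, with a median difference of 0.14. Of all genes, 6.01% rose and 4.73% fell at this step. The counts of the list were 3 and 2 without HH1 replicate 2. In it 2 rose without HH1 replicate 1, without HH2 replicate 2, under 75th percentile scaling or with the mean of the probe sets. The gene that rose was HSPH1 (HSP110), which exchanges the nucleotide of HSP70, with 1539 and 1267 at HH2, against 436 and 410.4 at HH1 (1.72 ± 0.249, adjusted p = 1.28e-05, limma). BAG5, another regulator of HSP70, averaged 309 at HH2, against 839 at HH1 (-1.44 ± 0.178). Among 13 co-chaperones and relatives of HSP90, 3 rose and 1 fell, with a median of 0.335. STIP1, the adaptor that joins HSP70 to HSP90, had 455 and 456 at HH2, against 113 and 154 at HH1 (1.79 ± 0.195, adjusted p = 3.18e-07). CHORDC1, an HSP90 co-chaperone, had 3056 and 2744 at HH2, against 1492 and 1073 at HH1 (1.20 ± 0.201, adjusted p = 8.12e-05). UNC45B, the myosin co-chaperone, fell (-2.26 ± 0.278). It averaged 732 at HH1 and 61.9 at HH38, while 12 muscle markers summed to 2492 to 3020 at HH1 and 100530 to 102940 at HH38. Whether its probe set reads the muscle gene was not tested. HSP90AB1, the constitutive HSP90 beta, had 10805 and 10930 at HH2, against 9325 and 11358 at HH1, and its arrays overlapped.

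In the other compartments the same step had 0 or 1 call a list, where 10.7% of all genes were called. The lists of 6 to 14 genes are too small to tell 0 or 1 call from that share. The list named for regulators of the unfolded protein response also holds genes that act downstream of it, such as CHAC1. Among 11 mitochondrial chaperones and proteases 1 rose and 0 fell, GRPEL1, the nucleotide exchange factor of the mitochondrial HSP70, with 2145 and 2118 at HH2, against 746 and 747 at HH1 (1.51 ± 0.0796, adjusted p = 7.13e-12, limma). With the mean of its probe sets 0 of the 11 were called. Among 28 chaperones and oxidoreductases of the endoplasmic reticulum 1 rose and 0 fell, DNAJC3, a J-domain partner of HSPA5, with 2026 and 2199 at HH2, against 879 and 990.4 at HH1 (1.18 ± 0.098, adjusted p = 6.64e-09). Of these 28, 17 were higher and 4 lower at an unadjusted p under 0.05 by limma, with a median of 0.39. At that p 23.5% of all genes were higher and 21% lower. By limma 0 genes were called among 14 of the TRiC chaperonin and prefoldin (8 higher and 1 lower at an unadjusted p under 0.05), 12 regulators of the unfolded protein response (3 and 2), 8 small heat shock proteins (3 and 0), 6 heat shock factors and their binding proteins (2 and 2) and 8 immediate early and stress genes (1 and 2). Leaving out 1 array brought some of these counts to 1 or 2. Without HH1 replicate 2, 2 regulators of the unfolded protein response, 2 small heat shock proteins and 1 heat shock factor rose and 2 immediate early and stress genes fell. Without HH2 replicate 2, 1 small heat shock protein rose and 1 TRiC or prefoldin gene fell, and without HH2 replicate 1, 1 immediate early or stress gene fell. In the endoplasmic reticulum list 2 rose without HH1 replicate 1 and 1 fell without HH1 replicate 2.

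**Figure D4:**
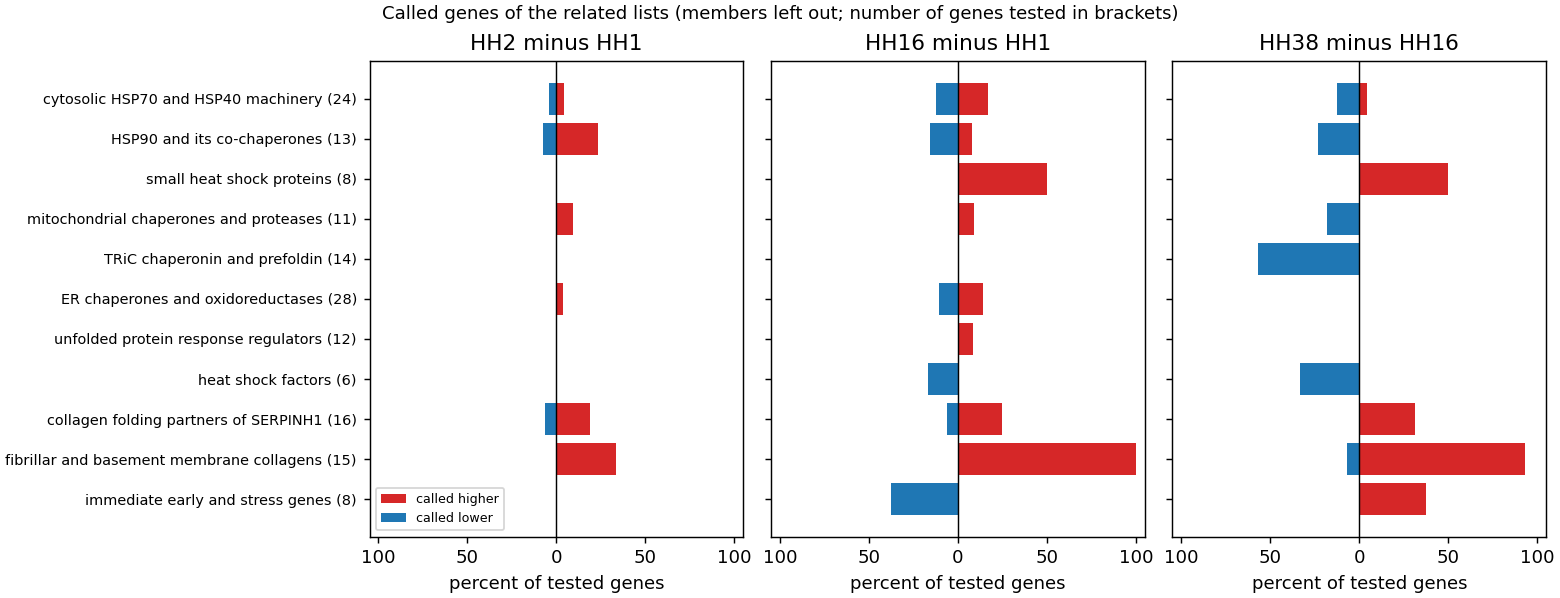
Percent of tested genes called higher (red, to the right) or lower (blue, to the left) in 11 lists around the 9 genes, for HH2 minus HH1, HH16 minus HH1 and HH38 minus HH16; brackets give the number of genes tested. In HH38 minus HH16 the TRiC and prefoldin list has 8 of 14 genes called lower and 0 higher, and the collagens have 14 of 15 called higher.

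From HH16 to HH38 the calls of the TRiC, HSP90, HSP70 and mitochondrial lists were all lower except that of BAG2. Of all genes, 23.4% were called in this comparison, 14.5% higher and 8.92% lower. The HSP90 list with 3 of 13 genes called, the HSP70 list with 4 of 24 and the mitochondrial list with 2 of 11 lay near or below that share. Calls as few as these cannot be told from the shares of all genes. Of the 14 TRiC and prefoldin genes, 8 fell and 0 rose, with a median of -1.03 against 0.012 over all genes; 5 fell after quantile normalization. Beside these falls, the summed signal of 5 red cell markers was 41121 to 47029 at HH38, against 143550 to 158160 at HH16, and that of 12 muscle markers 100530 to 102940 at HH38, against 35412 to 36169 at HH16. At or below background were 0 of the red cell markers at either stage, and of the muscle markers 0 or 1 on the HH38 arrays and 0 on the HH16 arrays. The HH38 arrays also had the highest actin 3' to 5' ratios, and the part of any of these in the lists' changes was not tested. CCT8, a TRiC subunit, averaged 7341 at HH38, against 18200.3 at HH16 (-1.31 ± 0.0615, adjusted p = 1.56e-13, limma), and CCT3 differed by -1.83 ± 0.309. In the HSP90 list 3 fell and 0 rose, with 12 of 13 genes lower at an unadjusted p under 0.05. HSP90AB1 averaged 2863 at HH38, against 10524 at HH16 (-1.88 ± 0.0837, adjusted p = 6.76e-14), and CHORDC1 529 at HH38, against 1576 at HH16 (-1.57 ± 0.201). In this list 7 fell under 75th percentile scaling, 5 under quantile normalization, 5 without HH16 replicate 2 and 6 without HH38 replicate 2. In the HSP70 list 1 rose and 3 fell, among them HSPH1 (-1.76 ± 0.249) and HSPA14 (-1.42 ± 0.0941), while BAG2, which holds back the ubiquitin ligase that works with HSP70, rose (1.95 ± 0.113). The number that fell was 6 under 75th percentile scaling and 5 without HH38 replicate 2. Of 11 mitochondrial genes 2 fell, HSPA9 (mitochondrial HSP70, -1.02 ± 0.0726) and the protease LONP1 (-1.16 ± 0.131); 4 fell under 75th percentile scaling, and 1 under quantile normalization or with the mean of the probe sets. By limma 0 of 28 genes of the endoplasmic reticulum list were called, with 4 higher and 11 lower at an unadjusted p under 0.05, and 0 of 12 regulators of the unfolded protein response, with 2 higher and 4 lower, while over all genes 27% were higher and 30.2% lower at that p. In the regulators' list 1 rose without HH16 replicate 2 or without HH38 replicate 1 or HH38 replicate 2, and in the endoplasmic reticulum list 1 rose without HH16 replicate 2. Of the 8 small heat shock proteins 4 rose and 0 fell in HH38 minus HH16, and likewise 4 and 0 in HH16 minus HH1. HSPB1 (HSP27) averaged 1059 at HH16, against 215 at HH1 (2.30 ± 0.226, adjusted p = 1.5e-08). HSPB3 and HSPB8 were not above background on the HH16 arrays and were at least 3.89-fold and 3.52-fold higher at HH38, counted against the background; HSPB3 was also called in HH16 minus HH1 (adjusted p = 0.00391), with means of 8.58 at HH16 and 0.468 at HH1 that both lay below the background.

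From HH1 to HH16 the calls of the chaperone lists were mixed. Of all genes, 27.2% were called in this comparison, 16.7% higher and 10.5% lower. The HSP70 list with 7 of 24 genes called and the endoplasmic reticulum list with 7 of 28 lay near that share. The HSP70 list had 4 genes higher and 3 lower, with HSPA12A, a distant HSP70 relative, at 2392 at HH16, against 82.6 at HH1 (4.86 ± 0.228, adjusted p = 6.24e-14, limma), DNAJB2 at least 2.49-fold higher against the background of HH1, and HSPA13 (-1.51 ± 0.342) and DNAJC21 (-1.29 ± 0.329) lower. Without HH1 replicate 1, 1 gene of this list was lower in place of 3. The HSP90 list had 1 higher, STIP1 (1.17 ± 0.195), and 2 lower, UNC45B (-2.78 ± 0.278) and AHSA2 (-1.13 ± 0.0986). The STIP1 call was lost without HH1 replicate 1, and 1 gene was lower without HH16 replicate 2 or with the mean of the probe sets. In the endoplasmic reticulum list 4 rose, with UGGT2 (1.98 ± 0.232) and DNAJC3 (1.34 ± 0.098) at the top, and 3 fell, with DNAJB9, a J-domain protein of that compartment, at 439 at HH16, against 2247 at HH1 (-2.36 ± 0.141, adjusted p = 3.9e-12) and SEL1L, which serves the disposal of misfolded proteins, at -1.17 ± 0.107. The count of genes that rose was 2 in place of 4 under quantile normalization, 75th percentile scaling or the mean of the probe sets, and without HH1 replicate 1. GRPEL1 was the mitochondrial gene called (1.71 ± 0.0796) and CHAC1 the gene of the unfolded protein response list (1.40 ± 0.359). HSF3 was the heat shock factor called (-1.12 ± 0.135, adjusted p = 3.74e-07, limma). None of the 14 TRiC and prefoldin genes was called (7 higher and 2 lower at an unadjusted p under 0.05, limma, where 32% and 26.8% of all genes were). Without HH1 replicate 1, HH1 replicate 2 or HH16 replicate 1, 2 regulators of the unfolded protein response were called higher. From HH16 to HH38, HSF4, not above background at HH38, and HSF2BP (-1.23 ± 0.254) were the heat shock factors and partners called lower, HSF4 by at least 1.19-fold; 1 of the list was called with values under the background set to it, without HH16 replicate 2 or without HH38 replicate 1. Of the immediate early and stress genes 0 rose and 3 fell in HH16 minus HH1, the autophagy receptor SQSTM1 (-3.06 ± 0.33) and DUSP1 (-1.67 ± 0.215) the most, and 3 rose and 0 fell in HH38 minus HH16, EGR1 (4.02 ± 0.317) and DUSP1 (1.37 ± 0.215) the most. In HH16 minus HH1, 5 fell without HH1 replicate 2 or under 75th percentile scaling, and 1 rose without HH1 replicate 1 or without HH16 replicate 2. In HH38 minus HH16, 1 fell under 75th percentile scaling.

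SERPINH1 serves collagen, so its clients and the other proteins of collagen folding were read beside it. Over all genes 6.01% rose and 4.73% fell in HH2 minus HH1. These shares were 16.7% and 10.5% in HH16 minus HH1, and 14.5% and 8.92% in HH38 minus HH16. Of 15 collagens, 5 rose and 0 fell from HH1 to HH2, with a median of 0.375, and 2 rose when the probe sets of a gene were averaged. Without HH1 replicate 1, 1 collagen fell. COL1A2 averaged 478 at HH2, against 74.5 at HH1 (2.68 ± 0.219, adjusted p = 5.17e-09, limma) and COL2A1 543 at HH2, against 94.3 at HH1 (2.53 ± 0.257). From HH1 to HH16 all 15 of these collagens rose, with a median of 2.92 against 0.059 over all genes, and SERPINH1 rose by 4.29. COL1A2 averaged 10335 at HH16, against 74.5 at HH1 (7.12 ± 0.219), and COL1A1 8048 at HH16, against 70.5 at HH1 (6.84 ± 0.25). From HH16 to HH38, 14 rose and 1 fell, with COL6A2 (5.13 ± 0.328) and COL6A1 (4.68 ± 0.2) at the top and COL18A1 (-1.18 ± 0.0967) as the 1 that fell. SERPINH1 had 3.49 of its 5.86 log2 units over HH1 already at HH2. Of 16 partners in collagen folding, 3 rose and 1 fell at HH2, with P3H4 (2.18 ± 0.509) and P3H3 (1.11 ± 0.213), which belong to collagen hydroxylase complexes, higher and MIA3, a procollagen export factor, lower (-1.21 ± 0.261). At HH1, P3H4 averaged 35.9 and P3H3 44.5, not far above the backgrounds of 28.9 and 32.8 of these arrays. P3H4 averaged 162 at HH2 and 39.8 at HH4, and P3H3 96.3 at HH2 and 153 at HH4. In HH16 minus HH1, 4 of the 16 rose and 1 fell, with P3H3 (2.55 ± 0.213) and the collagen-binding SPARC (2.31 ± 0.12) at the top and MIA3 lower (-1.43 ± 0.261). In HH38 minus HH16, 5 rose and 0 fell, with P4HA3, a prolyl hydroxylase subunit (3.51 ± 0.448), and SPARC (1.92 ± 0.12) at the top. The collagens and partners are also expressed by the connective tissue that the markers above stand for, and COL1A1, COL1A2 and COL3A1 are on both lists.

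**Figure D5:**
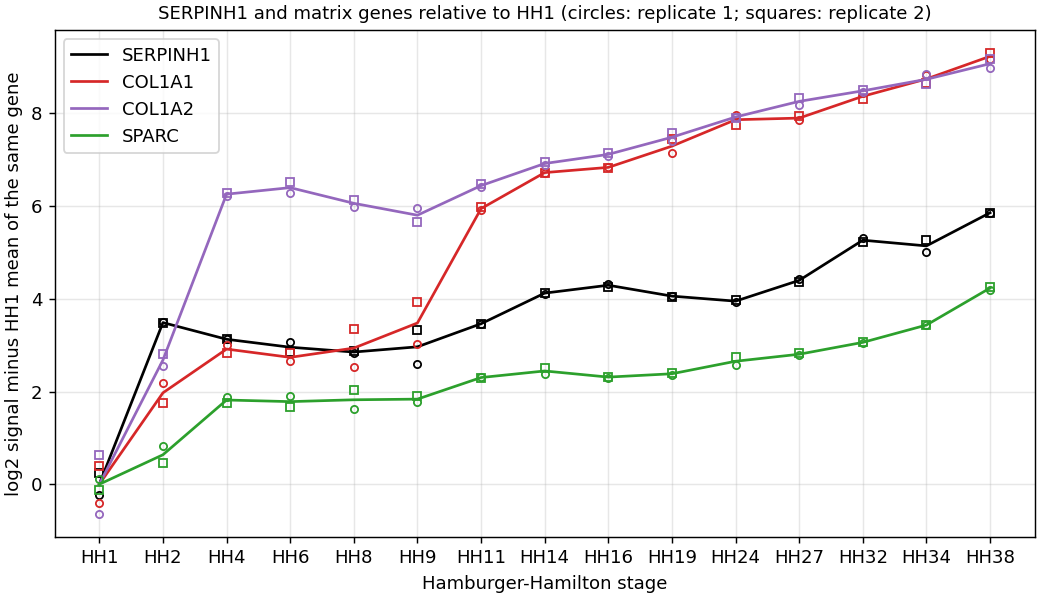
Log2 signal minus the HH1 mean of the same gene, by stage, for SERPINH1, COL1A1, COL1A2 and SPARC; circles and squares are the replicates and lines join stage means. The SERPINH1 line reaches 3.49 at HH2 and 5.86 at HH38, while the collagen lines end higher.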

How the data were processed

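The authors deposited linear intensity values of the MAS5 algorithm for each probe set, per the submitters' processing notes. The version of MAS5 was not stated there. Per the labels the arrays were hybridised with biotin-labelled RNA made by 3' in vitro transcription. The deposited values were taken to log2 without rescaling, after any value not above 0 had been replaced by the array's smallest positive one.

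Of 38535 probe sets, 37693 are for chicken and 27166 of these have 1 symbol in the platform's table. The gene table of the GRCg7b assembly held 26851 of their gene identifiers and changed 0 symbols. No genome sequence was used, and no coordinates are given. Probe sets that reached the 40th percentile of an array on at least 2 arrays were kept (29600), and each gene was represented by its probe set with the highest mean log2 signal, which left 12103 genes. For some symbols with several probe sets this choice decides the value.

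All 30 arrays entered 1 linear model with a mean for each of the 15 stages in limma 3.58.1 (eBayes with a variance trend, 15 residual degrees of freedom) in R 4.3.3. Benjamini-Hochberg adjustment ran over all kept probe sets within each comparison. Differences are log2 values of the stage named first minus the stage named second, and stage means are geometric means. Intervals are 95% and cover the spread between these arrays only. The fit was tested on simulated data with known changes, all of them larger than 2-fold by a wide margin. Changes close to the 2-fold rule were not simulated, so that test does not bear on calls near it. Figures were drawn with matplotlib 3.10.9 in Python 3.11.15.

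As background of an array served the 95th percentile over its 689 probe sets for other organisms. A gene at or below it on the arrays of its dimmer stage has a bound in place of a fold. The members, the gene lists, the marker lists and the background rule were chosen with earlier results of these data known, so they give no independent support. Named genes are the 9 members, the 2 largest rises and the 2 largest falls among called genes of each list and main comparison, and the 3 genes with the most similar course to each member. HSP90AB1 at HH2 was added after its values were seen. The steps HH4 minus HH2 for HSPB9 and HH38 minus HH34 for HSPA2 were singled out in the same way. Replicate numbers in the titles did not pair the samples: over 105 pairs of stages, the deviations of same-numbered arrays had correlations between -0.0305 and 0.0444. Alternatives were other scalings, filters, variance models and probe set rules, array weights, a replicate block and leaving out each array. Sequences of the genes were not analysed here.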

Additional observations from a re-analysis of the deposited data

How the results depend on the processing

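The limits come from 2 arrays a stage, which share 1 estimate of the spread over all stages; from the single probe set behind most values; and from a scaling that sets the same mean on every array. Quantile normalization moved the median of all genes by -0.12 in HH38 minus HH16 and by -0.197 in HH38 minus HH1, and 75th percentile scaling by -0.157 in HH16 minus HH1, -0.166 in HH38 minus HH16 and -0.322 in HH38 minus HH1, so small differences of bright genes between distant stages depend on it. Relative to that median, HSP90AA1 lay 0.97 above HH1 at HH16 and HSPA2 1.05 above HH16 at HH38 under 75th percentile scaling. The deposited scaling gave the same values, because 75th percentile scaling moves all genes of an array alike. HSPD1 lay -0.85 from HH16 at HH38 under quantile normalization and -1.12 with the deposited scaling, relative to the median. In HH38 minus HH1, 59.6% of the called genes were higher with the deposited scaling and 45.4% with 75th percentile scaling.

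Over 29 differences of single genes and 1118 values under alternatives, 1095 kept both direction and call, 9 lost the call, 3 gained it and 11 changed sign. Most of these values came from leaving out 1 array. An array of a stage that is not compared cannot move the difference, only its p. The share that stayed the same is therefore no measure of robustness. With an adjusted p below 0.05 and no fold rule, 7 members were called in HH2 minus HH1 (4 with the rule), 7 in HH38 minus HH16 (3), 9 in HH38 minus HH1 (3) and 21 over the steps (6). No share of all genes at this looser rule is given here, so these counts show nothing particular to the members. With the fold rule 42.1% of all genes were called in HH38 minus HH1, and 82.1% differed between stages by the F test. With the mean of the probe sets of a gene, 5 members were called in HH38 minus HH1 (3). With the second brightest probe set, which 5 members have, 1 was called in HH38 minus HH16 (3) and 5 differed between stages (9). Leaving out 1 array at a time gave 3 to 4 members in HH2 minus HH1, 3 to 4 in HH16 minus HH1, 3 to 3 in HH38 minus HH16, 3 to 4 in HH38 minus HH1, 9 to 9 for the F test and 5 to 7 over the steps. Without both HH38 arrays, an alternative chosen after the data were seen, the counts were 4 in HH2 minus HH1, 4 in HH16 minus HH1, 9 for the F test and 5 over 13 steps.

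With the replicate block, the counts were 4, 4, 3 and 3 in the main comparisons in the order above, 9 for the F test and 6 over the steps, so the block changed no count; the numbers do not pair the samples.

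The differences that changed sign were all uncalled. HSP90B1 in HH38 minus HH16 was 0.014 under quantile normalization and 0.054 with the second probe set. HSPA5 in HH16 minus HH1 was -0.029 under quantile normalization, -0.11 under 75th percentile scaling and -0.046 without HH1 replicate 2 (0.14 without replicate 1). HSPD1 in HH16 minus HH1 was -0.028 under 75th percentile scaling, -0.079 with the mean of probe sets and -0.29 with the second probe set. HSPB9 in HH38 minus HH16 was -0.057 under 75th percentile scaling, HSPA2 in HH2 minus HH1 -0.023 without HH1 replicate 2 (0.48 without replicate 1), and HSPA8 in HH16 minus HH1 0.0075 without HH16 replicate 2 (-0.20 without replicate 1). HSP90B1 in HH16 minus HH1 was called with the mean of its probe sets (2.26) and with the second one (3.94). For these the cause was not tested.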
